A study of Mus musculus with 6 samples.

Results

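The Hox genes of the mouse clusters A to D were compared between the blood and the lymphatic endothelium of the small intestine. The 38 genes examined here were chosen by name, as protein-coding Hox genes whose RefSeq accession was on the array, and were measured by 45 of the 56605 probes other than controls and among 22911 named genes. Sorted cells from the small intestine of female mice were negative for CD45 and positive for CD31. They were separated by CD90 into CD90-negative vascular endothelial cells (VECs, samples 2, 3 and 4) and CD90-positive lymphatic endothelial cells (LECs, samples 6, 7 and 8), with 1 one-color Agilent array for each sample and no treatment or genetic change named for either group. Strain and age are not given for these samples, and CD31 and CD90 define the populations only as far as these surface proteins do.

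Hox genes encode homeodomain transcription factors that stand in clusters, and their order along the chromosome follows the order in which they are used along the body axis. Genes at the same place in different clusters are paralogs and carry the same number, low numbers being used toward the head and high numbers toward the tail. HOX proteins bind DNA together with TALE homeodomain partners of the PBX, MEIS and PKNOX families. Adult cells, endothelium included, keep a Hox pattern that reflects their position in the body, which is held by Polycomb repressors and by MLL-type activators. CDX factors are upstream regulators of Hox genes in the embryo.

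Promoter sequence is shown for 5 of the genes that differed at least 2-fold: Hoxd10, Hoxd9, Hoxd4 and Hoxa7, higher in LECs, and Hoxb4, lower. Hoxb9 and Hoxb2, also lower by at least 2-fold, are not shown because no promoter window was available for them. Hoxa9 and Hoxc4, higher by at least 2-fold, had a window that is not shown. Promoter windows from RefSeq were used for 22 of the 38 genes (24 windows, assembly GRCm38.p6), and each sequence is the 250 bases before the annotated start of the transcript, 5′ to 3′ on the strand of the gene. The windows lie at chr2:74691641-74691890 (Hoxd10), chr2:74697513-74697762 (Hoxd9) and chr2:74721728-74721977 (Hoxd4) on the plus strand. That of Hoxa7 lies at chr6:52218574-52218823 on the minus strand, and that of Hoxb4 at chr11:96318017-96318266 on the plus strand. Capitals mark matches on either strand to a PBX-HOX motif (TGATNNAT), a CDX-type motif (TTTATG) or a TATA box (TATAAA).
Hoxd10: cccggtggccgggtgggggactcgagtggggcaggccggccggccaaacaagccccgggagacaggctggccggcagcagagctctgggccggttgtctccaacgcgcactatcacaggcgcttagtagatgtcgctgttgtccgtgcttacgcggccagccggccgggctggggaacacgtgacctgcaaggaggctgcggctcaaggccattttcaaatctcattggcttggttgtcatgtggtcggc
Hoxd9: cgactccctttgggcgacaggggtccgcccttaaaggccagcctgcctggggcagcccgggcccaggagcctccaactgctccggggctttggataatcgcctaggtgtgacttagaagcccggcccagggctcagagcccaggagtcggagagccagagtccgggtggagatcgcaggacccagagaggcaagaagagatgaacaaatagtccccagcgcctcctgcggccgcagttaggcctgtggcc
Hoxd4: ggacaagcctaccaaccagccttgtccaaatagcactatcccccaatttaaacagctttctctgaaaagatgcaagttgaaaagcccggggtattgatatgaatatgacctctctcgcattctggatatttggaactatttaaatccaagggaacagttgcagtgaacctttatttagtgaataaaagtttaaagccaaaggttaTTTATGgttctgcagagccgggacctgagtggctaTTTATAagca
Hoxa7: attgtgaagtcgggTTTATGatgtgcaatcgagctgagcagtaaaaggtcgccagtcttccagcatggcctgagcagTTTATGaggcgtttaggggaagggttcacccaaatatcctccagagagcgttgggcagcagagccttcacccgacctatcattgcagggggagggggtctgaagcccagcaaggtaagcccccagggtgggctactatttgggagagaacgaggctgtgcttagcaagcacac
Hoxb4: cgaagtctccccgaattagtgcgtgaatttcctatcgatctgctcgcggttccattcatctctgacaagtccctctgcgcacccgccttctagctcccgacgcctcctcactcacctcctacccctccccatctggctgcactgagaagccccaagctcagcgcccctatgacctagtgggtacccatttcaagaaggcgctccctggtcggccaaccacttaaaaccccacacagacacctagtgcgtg

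The windows of Hoxd10, Hoxd9 and Hoxb4 held no match to these motifs, and neither did those of Hoxa9 and Hoxc4. That of Hoxa7 held 2 CDX-type matches, and that of Hoxd4 held 1 CDX-type match and 1 TATA box. Over the 24 Hox windows, 4 held the PBX-HOX motif (16.7%), 5 the CDX-type motif (20.8%) and 4 the TATA box (16.7%). Among 32841 windows of the same length from all promoters, these shares were 7.69%, 10.8% and 12.4%. The Hox shares rest on few windows, and that of Hoxb8 held each of these motifs. Hoxa10 and Hoxd11 were counted with 2 windows each. Whether the Hox windows differ from all promoters in motifs or base composition was not tested. The motifs differ in their letters, so none is contained in another. The Hox windows had a median GC content of 58.6% (40.4 to 80.0%) and a median CpG ratio (observed over that given by the base composition) of 0.72, against 52.4% and 0.37 for all promoters.

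Signals are given as normalized log2 values, that is, the log2 of the background-subtracted intensity minus the 75th percentile of the array, so that 0 is a bright probe and the dimmest probes lie below -4. They describe 1 probe over the 6 arrays, and the level of one probe is not set against that of another. The 75th percentile was 333 to 375 intensity units on the VEC arrays against 381 to 441 on the LEC arrays, and 30929 to 35510 probes per array were well above background. Of the marker genes, 7 of 7 lymphatic ones were higher in LECs (Prox1, the lymphatic master regulator, 41.3-fold). In turn, 7 of 7 blood endothelial ones were lower (Flt1, a VEGF receptor, 59.0-fold). These lists were chosen with earlier results of these data known, so they are no independent check of the sort. Of 7 pan-endothelial markers 5 were lower in LECs (71.4%, against 32.0% of all genes tested), Esam by 26.9-fold, and 0 were higher. Pecam1, which encodes CD31, was measured on all arrays and was 2.68-fold lower in LECs. Whether different mice gave the samples of a population is stated in neither labels nor methods, and the p-values therefore measure a spread that may be technical. VEC 2, 3 and 4 and LEC 6 lay in row 1 of the slide and LEC 7 and 8 in row 2. In bulk samples, fewer cells of a type and less RNA per cell cannot be told apart.

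Of the 38 Hox genes 20 were measured in both endothelia, and no gene beyond paralog group 10 was measured in either. A gene was counted as measured in a group if one of its probes was well above background in all 3 samples of that group. By this count 23 of 38 genes were measured in VECs and 22 in LECs. Among all 22911 named genes, 13312 had a probe well above background on all 6 arrays, against 20 of the 38 Hox genes. A tested probe was found for 14971 of those named genes and for 25 of the 38 Hox genes. The Hox counts are a description, and a difference from other genes was not tested. In both groups 20 genes were measured: Hoxa2, Hoxa3, Hoxa4, Hoxa5, Hoxa6, Hoxa7 and Hoxa9 of cluster A, Hoxb2, Hoxb3, Hoxb4, Hoxb5, Hoxb6, Hoxb7 and Hoxb8 of cluster B, Hoxc5 and Hoxc10 of cluster C, and Hoxd3, Hoxd4, Hoxd8 and Hoxd9 of cluster D. The 3 genes measured on every VEC array and on 2 of 3 LEC arrays were Hoxa10, Hoxb9 and Hoxc6. Hoxd10 was measured on every LEC array and on none of the VEC arrays, and Hoxc4 on every LEC array and on 1 VEC array.

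The genes of paralog groups 11 to 13, which pattern the hindmost body, the limbs and the urogenital tract, were measured in neither group (0 of 9). Of these, Hoxd13 was well above background on 1 array, LEC 7, where its normalized log2 signal was -2.98 against -7.12 on LEC 6 and -6.58 on LEC 8. The 12 genes that were well above background on no array were Hoxa11, Hoxa13, Hoxb1, Hoxb13, Hoxc8, Hoxc9, Hoxc11, Hoxc12, Hoxc13, Hoxd1, Hoxd11 and Hoxd12. Thus Hoxb1 and Hoxd1, the paralog group 1 genes examined here, were not measured either, while 5 of 5 genes of paralog groups 2 and 3 were. A signal at background does not show that the transcript is absent.

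The populations differed in their Hox genes in both directions, and cluster D stood on one side. Of the 38 genes 25 had a tested probe, and 12 were higher in LECs (48.0%, against 34.9% of the 14971 genes tested), 4 were lower (16.0%, against 32.0%) and 9 did not pass the threshold (limma, Benjamini-Hochberg adjusted p under 0.05). A difference of at least 2-fold past the threshold was found for 9 genes (36.0%, against 25.1% of all genes tested), with 6 higher and 3 lower in LECs. The median log2 difference was 0.22 over the 25 genes and 0.02 over all genes tested. The median absolute difference was 0.83 against 0.46. These shares and medians are a description, and whether the Hox genes differ from other genes was not tested. Without scaling between arrays 14 Hox genes were higher and 3 lower, and 67.4% of the calls over all genes were then toward LECs, against 52.2% with scaling. With the row of the slide as a block, 9 Hox genes were higher and 5 lower, and within row 1 alone 7 were higher and 5 lower. Row 2 holds LEC arrays only, so the differences of both fits are those of LEC 6 alone against the 3 VEC arrays. The lone array is assumed to vary like the others, and calls gained or lost in these fits rest on it. Hoxa10, Hoxb9, Hoxc6, Hoxc4 and Hoxd10 entered the test through the group in which they were measured. Over the 20 genes well above background on all 6 arrays, 10 were higher and 3 lower in LECs, with a median log2 difference of 0.28.

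**Figure D1:**
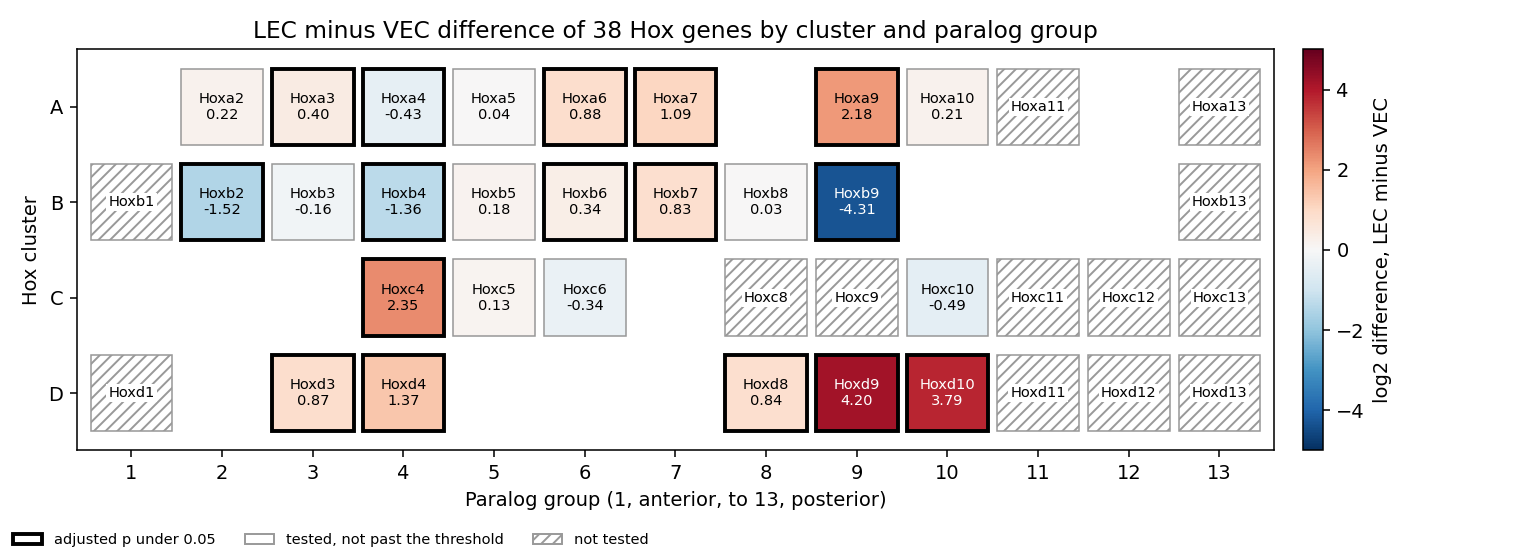
Hox genes by cluster (vertical axis) and paralog group (horizontal axis), colored by the log2 difference between LECs and VECs (red, higher in LECs). Thick frames mark an adjusted p under 0.05, hatching marks genes that were not tested, and empty positions hold no gene shown here. The 5 tested genes of cluster D are red, while cluster B holds Hoxb2, Hoxb4 and Hoxb9 in blue.

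Cluster D was higher in LECs in 5 of 5 tested genes, with a median log2 difference of 1.37. Without Hoxd10, which entered the test through the LEC arrays, these values were 4 of 4 genes and 1.12. Among all genes tested 34.9% were higher in LECs, and a difference of cluster D from that share was not tested. Hoxd9, a posterior gene whose cluster is known from limb and trunk patterning, was measured on all arrays. Its normalized log2 signal was -2.59, -2.55 and -2.81 on VEC 2, 3 and 4 and 1.42, 1.64 and 1.60 on LEC 6, 7 and 8. The groups lay far apart, and the spread within each was small (SD 0.14 and 0.11, n = 3). The log2 difference was 4.20 ± 0.10 (SE), or 18.4-fold (limma adjusted p = 1.1e-06).

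Hoxd10 is the posterior neighbor of Hoxd9. Its signal was -7.19, -5.09 and -6.07 on the VEC arrays, all at background, and -2.55, -2.05 and -2.39 on the LEC arrays, all well above it. The fold is thus given as a bound. Here and below, "at least" holds for the background subtraction used here and is not a strict limit. It was taken, on each VEC array, against the dimmest signal of any detected probe, or against that of the Hoxd10 probe where it was higher. In LECs, Hoxd10 was higher by at least 5.31-fold (limma adjusted p = 0.0011). Hoxd11, Hoxd12 and Hoxd13, further along the same cluster, were not measured in LECs, and Hoxd13 was above background on LEC 7 alone.

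Hoxd4, toward the other end of the cluster, had signals of 1.30, 1.04 and 1.005 on the VEC arrays and of 2.72, 2.71 and 2.02 on the LEC arrays. LEC 8 was the lowest LEC array but stayed above every VEC array. The log2 difference was 1.37 ± 0.21 (SE), or 2.59-fold (limma adjusted p = 0.0018). Hoxd8 was higher by 0.84 ± 0.07 (adjusted p = 1.7e-04), and its second probe gave 0.78. Hoxd3 was higher by 0.87 ± 0.17 (limma adjusted p = 0.0051). The call for Hoxd3 was lost with the slide row as a block, that is for LEC 6 alone (0.63, adjusted p = 0.062) and with normexp, a model-based background correction that raises dim signals (0.23, adjusted p = 0.075). Normexp also lowered the difference of Hoxd9 to 3.07 and that of Hoxd10 to 0.98, both still past the threshold. For Hoxd10 this lies below the bound given above.

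**Figure D2:**
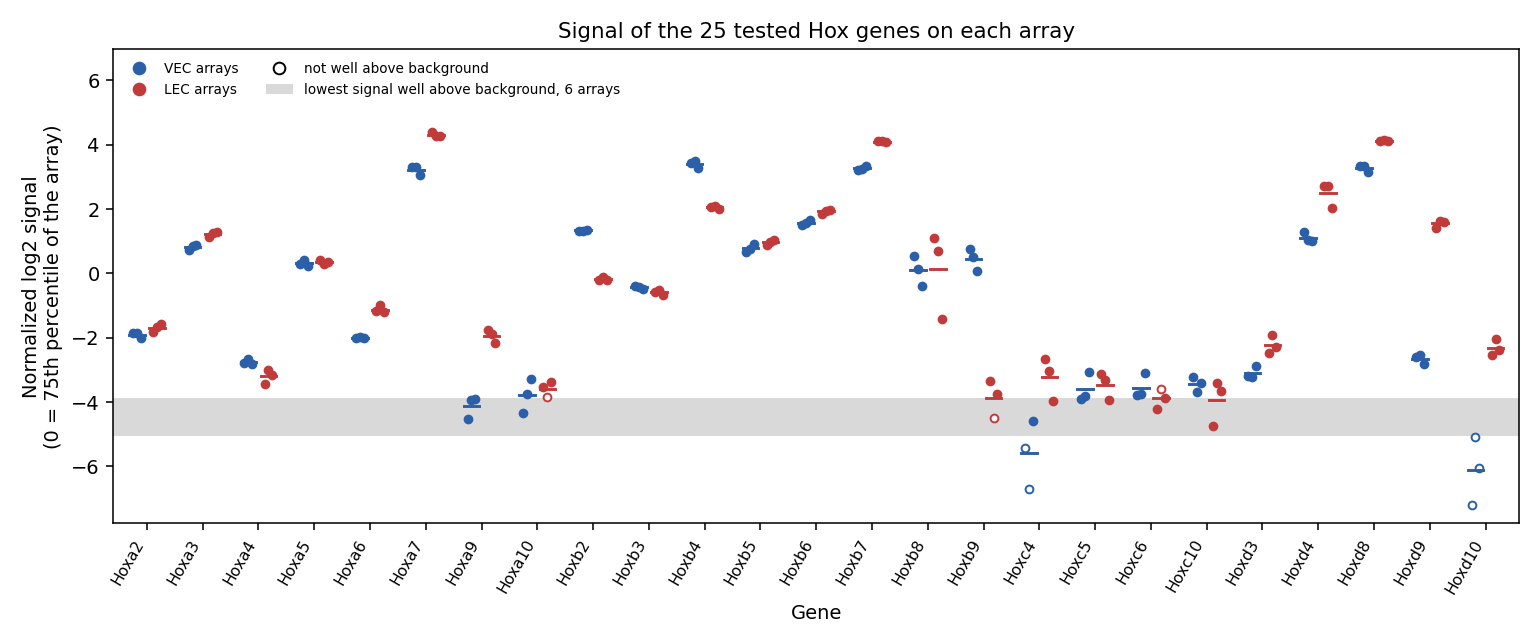
Normalized log2 signal (vertical axis, 0 is the 75th percentile of the array) of the 25 tested Hox genes (horizontal axis) on each of the 3 VEC (blue) and 3 LEC (red) arrays, with bars at the group means. Open points were not well above background, gray shading shows where the dimmest detected probes of the 6 arrays lie, and levels of different genes are not comparable. Hoxd9 and Hoxb9 lie apart in opposite directions, and the LEC points of Hoxb8 are spread from -1.41 to 1.10.

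Cluster B held the 3 largest Hox differences toward VECs. Of its 8 tested genes 3 were lower in LECs, each by more than 2-fold, 2 were higher and 3 did not pass. Among all genes tested 32.0% were lower and 34.9% higher, and a difference of cluster B from these shares was not tested. Hoxb9, the paralog of Hoxd9 and the most posterior gene of this cluster measured here, had signals of 0.75, 0.51 and 0.06 on the VEC arrays. On the LEC arrays they were -3.34, -4.50 and -3.76, with LEC 7 not well above background. The groups did not overlap, and Hoxb9 was at least 17.3-fold higher in VECs (log2 difference -4.31 ± 0.33 SE, limma adjusted p = 9.0e-05). Its second probe was above background on every VEC array (-3.03, -2.71 and -2.52) and on no LEC array (-6.99, -5.86 and -6.46). It gave at least 3.33-fold (adjusted p = 1.2e-04). With normexp the log2 difference of Hoxb9 was -2.74, still past the threshold but smaller than the 17.3-fold bound.

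Hoxb2, an anterior gene known from hindbrain patterning, had signals of 1.33, 1.33 and 1.34 on the VEC arrays and of -0.21, -0.12 and -0.22 on the LEC arrays. Each group was tight, and the log2 difference was -1.52 ± 0.06 (SE), with a 2.86-fold higher signal in VECs (limma adjusted p = 6.5e-06). Hoxb4, known for its use in blood stem cells, had signals of 3.45, 3.50 and 3.28 on the VEC arrays and of 2.05, 2.11 and 1.99 on the LEC arrays. It was 2.57-fold higher in VECs (log2 difference -1.36 ± 0.08 SE, limma adjusted p = 3.5e-05). For both genes the lowest VEC array lay above the highest LEC array.

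The middle of cluster B went the other way. Hoxb7, used in the trunk, was higher in LECs by 0.83 ± 0.06 (SE) on the log2 scale (limma adjusted p = 7.8e-05), and Hoxb6 by 0.34 ± 0.07 (adjusted p = 0.0059). The call for Hoxb6 was lost for LEC 6 alone, with the slide row as a block (0.27, adjusted p = 0.063). Hoxb5 (0.18, 95% interval -0.03 to 0.40) and Hoxb3 (-0.16, -0.33 to 0.01) did not pass, while the second probe of Hoxb3 was lower in LECs by 0.26 (difference -0.26, limma adjusted p = 0.0086).

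Hoxb8, a central gene of the same cluster, had the largest SD over the LEC arrays among the 25 tested Hox genes. Its signal was 0.53, 0.13 and -0.39 on VEC 2, 3 and 4, and 1.10, 0.68 and -1.41 on LEC 6, 7 and 8, so that the LEC arrays lay on both sides of all VEC arrays. A second probe gave -1.03, -1.45 and -1.90 on the VEC arrays against -0.32, -0.92 and -3.10 on the LEC arrays, in the same order within each group. The highest and the lowest LEC array differed 5.71-fold by the first probe and 6.90-fold by the second. The SD over the LEC arrays was 1.35 against a median of 0.10 over all genes tested, and 0.401% of those genes had an SD at least as large. The difference between the groups was 0.03, with a 95% interval of -1.62 to 1.68, so these arrays do not resolve a difference of Hoxb8 in either direction.

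Cluster A was higher in LECs in 4 of 8 tested genes and lower in 1. The shares over all genes tested were 34.9% and 32.0%, and a difference of cluster A from them was not tested. Hoxa7, used in the trunk, had signals of 3.31, 3.29 and 3.07 on the VEC arrays and of 4.38, 4.26 and 4.28 on the LEC arrays. Every LEC array lay above every VEC array, with a log2 difference of 1.09 ± 0.09 (SE), or 2.12-fold (limma adjusted p = 1.3e-04). Hoxa6, its neighbor, was higher by 0.88 ± 0.08 (adjusted p = 2.0e-04). Hoxa3, known from the thymus and the neck, was higher by 0.40 ± 0.07 (adjusted p = 0.0043), and its second probe gave 0.29 (adjusted p = 0.16). The call for Hoxa3 was also lost for LEC 6 alone, in the fit with that block (0.31, adjusted p = 0.0503).

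For Hoxa9, a posterior gene known from endothelial and blood progenitor cells, the probes disagreed. The probe with the higher mean had signals of -4.52, -3.93 and -3.90 on the VEC arrays and of -1.76, -1.88 and -2.16 on the LEC arrays, without overlap. It gave a log2 difference of 2.18 ± 0.20 (SE), or 4.54-fold (limma adjusted p = 1.9e-04). The other probe, assigned to the same RefSeq transcript, had signals of -3.43, -3.16 and -3.52 on the VEC arrays and of -3.17, -2.98 and -3.11 on the LEC arrays. It gave 0.28 ± 0.11 (adjusted p = 0.073). Without LEC 6, and within row 1, this other probe had the higher mean and stood for the gene (0.32, adjusted p = 0.092, and 0.20, adjusted p = 0.43). The mean of both probes gave 1.23, past the threshold, and normexp gave 0.87 for the first probe.

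Hoxa4 was lower in LECs by 0.43 (difference -0.43 ± 0.13 SE, limma adjusted p = 0.025). The call for Hoxa4 was lost in 6 of 20 alternatives, where the difference was -0.21 to -0.45, among them those without VEC 2, VEC 3 or LEC 8. Hoxa2 (0.22, 95% interval -0.01 to 0.45), Hoxa5 (0.04, -0.16 to 0.23) and Hoxa10 (0.21, -0.48 to 0.89) did not pass. For Hoxa5 the interval leaves room for little more than 0.2 on the log2 scale in either direction.

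Cluster C was the least measured, with 4 of 9 genes tested. Hoxc4 had signals of -5.42, -6.72 and -4.59 on the VEC arrays and of -2.66, -3.04 and -3.97 on the LEC arrays, and VEC 4 was the VEC array above background. In LECs, Hoxc4 was higher by at least 2.74-fold (limma adjusted p = 0.015). Without LEC 6 its adjusted p was 0.0505, and with normexp the log2 difference was 0.31 (limma adjusted p = 0.087), smaller than that bound. Hoxc5 (0.13, 95% interval -0.61 to 0.87), Hoxc6 (-0.34, -0.92 to 0.25) and Hoxc10 (-0.49, -1.37 to 0.38) did not pass, and all lay near background. When the slide row was a block, which leaves LEC 6 (-4.73) alone against the VEC arrays, Hoxc10 gave -1.30 (limma adjusted p = 0.0074). LEC 7 (-3.40) and LEC 8 (-3.66) lay within the range of the VEC arrays (-3.70 to -3.22).

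**Figure D3:**
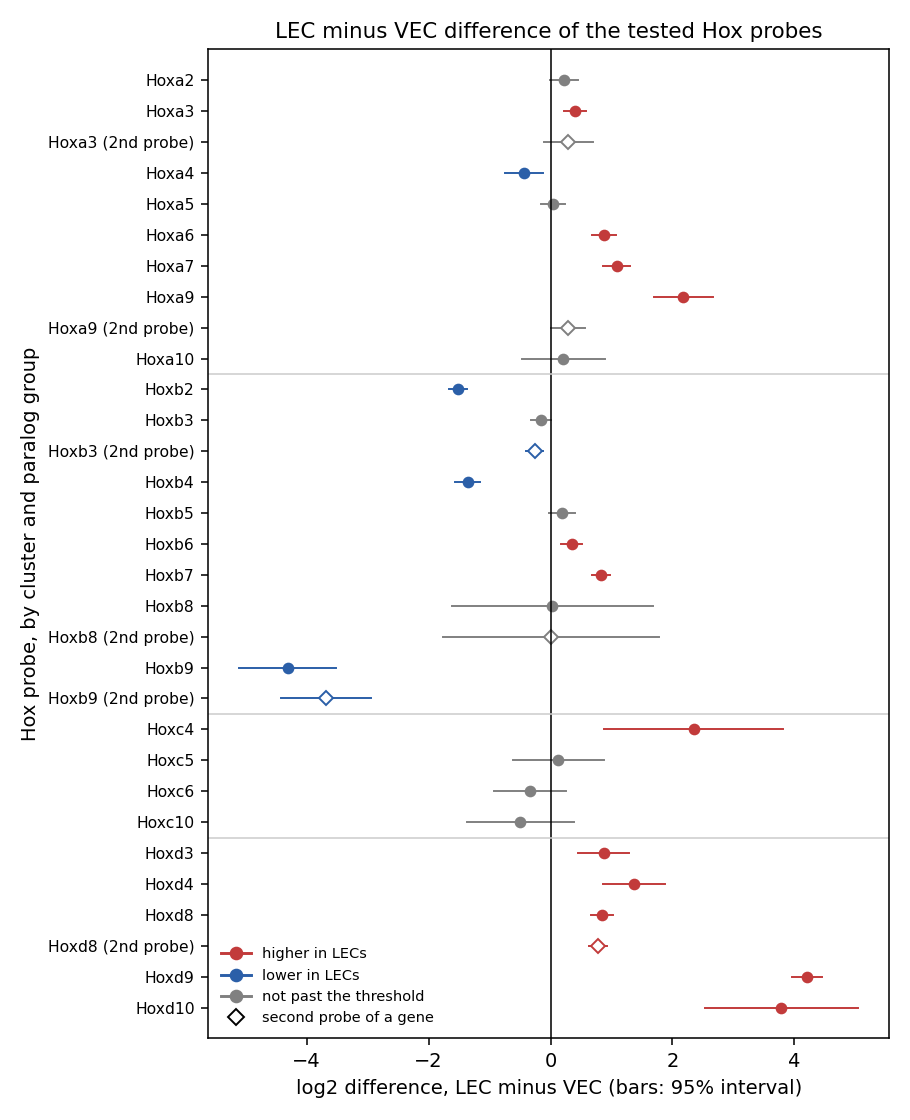
Log2 difference between LECs and VECs (horizontal axis) with its 95% interval for each tested Hox probe (vertical axis), ordered by cluster and paralog group. Red and blue mark probes higher and lower in LECs at an adjusted p under 0.05, gray marks the others, and open diamonds are second probes. Both probes of Hoxb9 lie below -3, both of Hoxb8 have intervals wider than 3, and those of Hoxa9 do not overlap.

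By paralog group, the same number did not mean the same direction. In group 9, Hoxa9 and Hoxd9 were higher in LECs and Hoxb9 was lower, while Hoxc9 was at background. In group 4, Hoxc4 and Hoxd4 were higher, and Hoxa4 and Hoxb4 were lower. In groups 6 to 8 the calls were Hoxa6, Hoxa7, Hoxb6, Hoxb7 and Hoxd8, all higher in LECs, with the limit given above for Hoxb6. Hoxb8 (0.03) and Hoxc6 (-0.34) did not pass, and Hoxc8 was at background. Among all genes tested 34.9% were higher in LECs, and a difference of these groups from that share was not tested. In group 2, Hoxb2 was lower and Hoxa2 did not pass. In group 3, Hoxa3 and Hoxd3 were higher and Hoxb3 did not pass. In group 5, Hoxa5, Hoxb5 and Hoxc5 did not pass. In group 10, Hoxd10 was higher, and Hoxa10 and Hoxc10 did not pass. The limits given above for Hoxa3, Hoxa4, Hoxa9, Hoxc4 and Hoxd3, whose calls were lost in some alternatives, hold here as well.

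Of 8 TALE genes examined here, which encode DNA-binding partners of HOX proteins, 7 were measured in VECs and 6 in LECs. Of 7 tested, 1 was higher in LECs (Pbx2, 0.31, limma adjusted p = 0.011), 4 were lower and 2 did not pass, that is 14.3% higher and 57.1% lower against 34.9% and 32.0% of all genes tested. Pbx3 was lower by 0.95 (difference -0.95, adjusted p = 5.7e-05), with signals of 1.55, 1.62 and 1.67 on the VEC arrays and of 0.63, 0.71 and 0.64 on the LEC arrays, and its second probe gave -0.95 too. Pknox2 was above background on every VEC array (-4.68, -2.81 and -2.72) and on no LEC array (-6.18, -4.99 and -6.64), and was at least 2.12-fold lower in LECs (limma adjusted p = 0.016). Pknox2, 1 of the 4 lower genes, thus entered the test through the VEC arrays. Its VEC 2 signal lay near the dimmest detected signal of that array (-4.90). Meis1, a partner in blood and endothelial cells, gave -0.34 (adjusted p = 0.030), while its second probe gave 0.98 and did not pass (95% interval -0.05 to 2.01). Pknox1 gave -0.24 (adjusted p = 0.041). Meis2 (0.00, 95% interval -0.55 to 0.55) and Meis3 (0.03, -0.18 to 0.23) did not pass, and Pbx4 was above background on 1 VEC array and on no LEC array.

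The count of these TALE genes lower in LECs was 4. It was 1 in the fit with the slide row, where LEC 6 stands alone, and 1 without VEC 3. It was 2 without VEC 2, VEC 4, LEC 6 or LEC 8 in turn, and 2 when the probes of a gene were averaged.

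**Figure D4:**
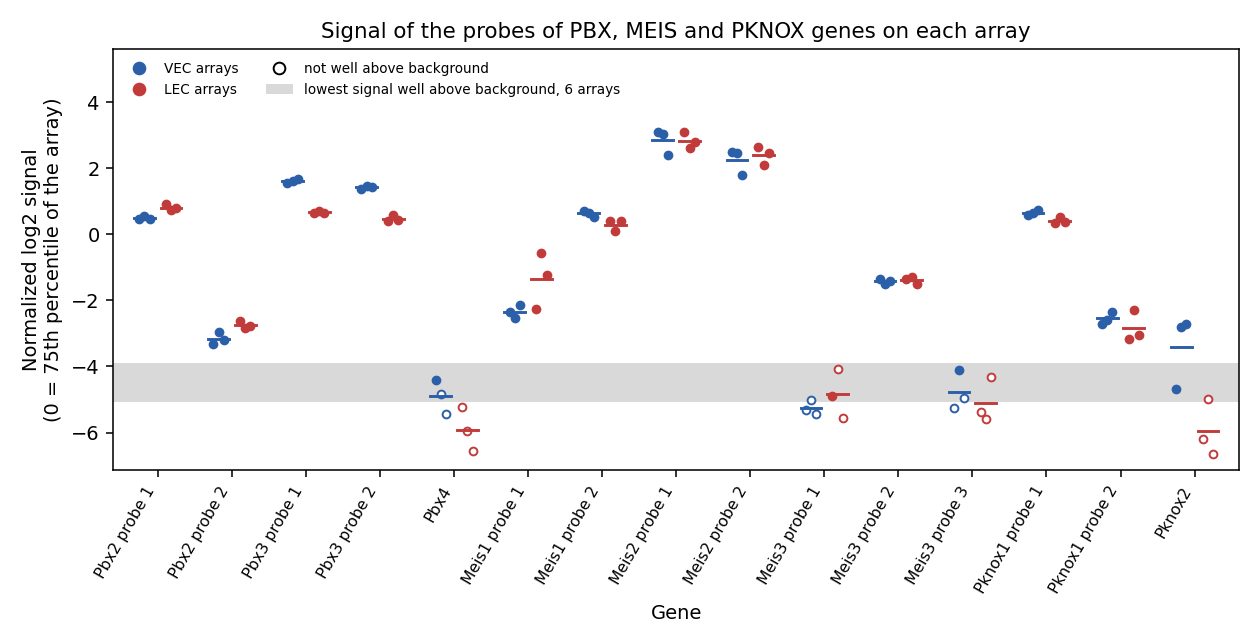
Normalized log2 signal (vertical axis) of each probe of the PBX, MEIS and PKNOX genes examined here (horizontal axis) on the 3 VEC (blue) and 3 LEC (red) arrays, with bars at the group means. Open points were not well above background, gray shading shows where the dimmest detected probes lie, and levels of different probes are not comparable. Both Pbx3 probes lie lower in LECs, and the LEC points of Pknox2 are all open.

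Among genes upstream of the Hox clusters and related homeobox genes, Cdx1, Cdx2, Cdx4, Evx1, Gsx2 and Pdx1 were well above background on no array. Evx2, which lies beside cluster D, was detected in all samples and gave a difference of -0.0054 (95% interval -0.57 to 0.55). Gsx1 was at least 2.15-fold lower in LECs (limma adjusted p = 0.0028). It was above background on every VEC array and on no LEC array, and so entered the test through the VEC arrays.

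Of 22 Polycomb genes examined here, which keep Hox genes silent, all were measured in both groups, and 6 were higher in LECs (27.3%), 7 lower (31.8%) and 9 did not pass, with a median log2 difference of 0.05. These shares lie near those of all genes tested. The largest differences toward LECs were those of Bmi1 (0.69), Cbx6 (0.62) and Phc2 (0.61), of the PRC1 complex, but a second probe of Phc2 was lower in LECs (-0.40, limma adjusted p = 0.0015). Toward VECs they were those of Phf19 (-1.05), a PRC2 accessory protein, and of Cbx2 (-0.92) and Cbx8 (-0.86), which read the Polycomb mark. Of 10 MLL-type activators and demethylases of H3K27, 3 were higher (30%) and 3 lower (30%) in LECs. Here too the shares lay near those of all genes tested (34.9% and 32.0%). Kdm6b, which removes the Polycomb mark, was higher in VECs by 5.51-fold (limma adjusted p = 1.0e-05), while Kdm6a gave -0.08 and did not pass. Psip1, which tethers MLL to chromatin, was higher in LECs by 0.89 (adjusted p = 1.9e-04).

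Some markers of other cells differed between the groups as well, but so did many genes: 34.9% of all genes tested were higher and 32.0% lower in LECs. The mesenchymal list (42.9% higher and 28.6% lower) and the epithelial list (33.3% and 33.3%) lay near these shares. The other tested lists below lay further from them. Each list holds few genes, and whether any differs from all genes was not tested. Hox genes are also used by mesenchyme, enteric nerves and glia. Of 7 tested mesenchymal markers 3 were higher in LECs (Dcn 6.33-fold, Col3a1 2.78-fold and Col1a1 1.67-fold) and 2 were lower (Foxf1, also known from endothelium, 25.8-fold, and Gli1 2.26-fold). The summed linear signal of that list, in units of the 75th percentile of the array, was 20.0 to 22.0 on the VEC arrays against 3.31 to 4.33 on the LEC arrays. Without Foxf1 it was 1.63 to 2.20 against 2.63 to 3.50, in the opposite direction, and such a sum over different probes is a description only. Foxf2 and Tcf21 were above background on no array. Of 6 enteric neuron and glia markers examined here 3 were higher in LECs, S100b (15.5-fold), Sox10 (4.25-fold) and Gfap (at least 2.18-fold), and Ret was lower (at least 4.04-fold). Their sum was 1.36 to 1.64 on the VEC and 2.36 to 2.86 on the LEC arrays. Of 7 smooth muscle markers 2 were lower in LECs (sum 45.9 to 56.6 on the VEC and 33.8 to 44.3 on the LEC arrays), namely Acta2 and Myh11. Of 7 tested myeloid markers 4 were higher and 2 lower (Itgam and Cd68), and Ptprc, which encodes CD45, was above background on 2 arrays of each group. The myeloid sum was 78.0 to 83.7 on the VEC and 68.4 to 73.6 on the LEC arrays, but it mostly reflects the Itgam probe. That probe had a mean log2 signal of 6.28 in VECs and 6.06 in LECs, and no other marker of the list had a group mean above 1.26. Toward LECs, Aif1 differed 7.20-fold, Adgre1 at least 3.76-fold and Lyz2 at least 3.25-fold. The direction of the sum is therefore not that of most markers in it. Of 6 tested epithelial markers 2 were higher and 2 lower (sum 4.15 to 6.78 and 7.25 to 8.50), and Krt20 was above background on no array. Of 4 tested lymphocyte markers 1 was higher and 3 were lower (sum 4.75 to 6.01 and 3.76 to 4.48), with Cd3g, Cd8a and Ms4a1 on no array. None of the 5 mesothelial markers was tested, and Wt1, Msln, Upk3b and Lrrn4 were on no array. The part of these cells in the Hox differences was not tested.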

How the data were processed

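RNA of 3 VEC and 3 LEC samples was hybridized to 1 one-color array each. The deposited intensity of each spot had been background-subtracted by Agilent Feature Extraction 12.0.3.1, and spots well above background were marked by it. A deposited log2 table held the log2 intensity minus 1 constant per array and served as an alternative. Probes were named through RefSeq accessions.

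Outlier spots were left out, log2 signals of repeated spots were averaged, and each array was centered on its 75th percentile. The 33776 probes well above background on all 3 arrays of 1 group or more were fitted in R 4.3.3 by lmFit and eBayes of limma 3.58.1 (two-sided, Benjamini-Hochberg, adjusted p under 0.05). For each gene, the tested probe with the highest mean signal stood for it. Where not every array of the dimmer group detected a probe, the bound used, per array, the higher of its signal and the dimmest detected signal, 12.1 to 25.1 intensity units. Undetected probes can lie above that signal, and normexp gave smaller differences for Hoxd10, Hoxb9 and Hoxc4. The bound therefore depends on the background subtraction. The number of arrays limits the precision. The fit was tested on simulated data.

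The members and gene lists were chosen with earlier results of these data known. Every Hox and TALE gene examined was named, and some listed genes are withheld and not reported here. Values per array are given for Hox genes past the threshold with at least 2-fold, or measured on all arrays of one group and none of the other. The arrays of Hoxb8, of the second probes of Hoxa9 and Hoxb9 and of Pbx3 and Pknox2 are given because of their spread, their probes or their role, chosen after their values were seen. Of other lists, up to 3 genes per direction past the threshold were named, with defining markers. Alternatives were other background corrections, scalings, filters and tests, the mean of the probes, the slide row as a block and each replicate left out; analysis within slide row 1 was added after seeing the data. The LEC samples are described as VECs in 1 field of the labels, and grouping followed their titles and source names.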

Additional observations from a re-analysis of the deposited data

How the results depend on the processing

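The counts of 12 Hox genes higher and 4 lower in LECs were the same with quantile scaling, with the percentile over detected probes, with outlier spots kept, with an intensity trend and with the deposited log2 table. Over the other alternatives on all 6 arrays they were 9 to 14 and 3 to 5, and leaving out 1 array gave 11 to 13 and 3 to 4. Within slide row 1, chosen after seeing the data, 7 were higher. Hoxa6, Hoxa7, Hoxb2, Hoxb4, Hoxb7, Hoxb9, Hoxd4, Hoxd8, Hoxd9 and Hoxd10 kept their call in every alternative run for them. Without scaling between arrays the median log2 difference of all genes rose from 0.02 to 0.24 and 67.4% of calls were higher in LECs, against 52.2%, and 14 Hox genes were higher and 3 lower.

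The count of TALE genes lower in LECs was 4. It was 2 without a filter on dim probes, without scaling and with all probes of a gene averaged, and 1 with the methods' one-way test, with the slide row as a block and within row 1, both resting on LEC 6 as the single LEC array. It was 1 to 3 when 1 array was left out. The count higher was 1 in every alternative run. The causes were not tested. Hox genes measured in LECs numbered 25 with 2 of 3 arrays sufficing and 26 with 1 of 3, and those in VECs 23 and 24.

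Differences that turned sign were those of genes that passed in neither setting: Hoxa10 to -0.044 and Hoxc5 to -0.10 with normexp, and Hoxb3 to 0.070 without scaling. When 1 array was left out, the difference ran from -0.069 to 0.46 for Hoxa10, from -0.011 to 0.095 for Hoxa5, from -0.46 to 0.80 for Hoxb8 and from -0.031 to 0.40 for Hoxc5. Dim probes are limited by their signal over background. No paired analysis was possible because the groups share no replicate numbers.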

Other observations

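Noncoding transcripts of the Hox clusters were also on the array. Hoxb5os, antisense within cluster B, was lower in LECs by 0.62 on the log2 scale (difference -0.62, limma adjusted p = 0.0050), with signals of 2.03, 1.96 and 1.65 on the VEC arrays and of 1.33, 1.31 and 1.15 on the LEC arrays, and its second probe gave -1.09 (adjusted p = 4.1e-04). Hoxb5 itself gave 0.18 and did not pass. Hottip, transcribed from the posterior end of cluster A, was above background on 3 VEC arrays and 1 LEC array. It entered the test through the VEC arrays and was lower in LECs by at least 1.41-fold (limma adjusted p = 0.019). Hoxa11os was higher in LECs by 0.48 (limma adjusted p = 0.015) and was measured on all 6 arrays, while Hoxa11 was above background on none. The Hoxa11os signals lay near the dimmest detected ones, with -4.34 on VEC 3 against -4.55 and -3.71 on LEC 7 against -3.92. Hoxaas3 (0.04) and Hoxd3os1 (0.34, adjusted p = 0.062) did not pass, and Halr1 was above background on VEC 2 alone.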
